A study of Homo sapiens with 2 samples.

Results

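The genes described here are the expressed protein-coding genes of an 18q21 segment on the long arm of chromosome 18, as measured by RNA-Seq in parental A1847 cells and in CARM1 KO A1847 cells. A1847 is a human ovarian cancer cell line. CARM1 is a protein arginine methyltransferase that modifies histones and transcriptional coregulators, and the CARM1 KO cells are 1 clone made from A1847 with a lentiviral CRISPR construct carrying a guide RNA to CARM1. Both lines were grown in the same serum-supplemented medium, and which vector, if any, the parental cells carried is not given in the sources used here. There was 1 library of parental cells and 1 library of CARM1 KO cells, so no difference has a replicate check, and each fold change compares these libraries and not the conditions.

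Members were the protein-coding genes that lie within chr18:43380546-59977482 on GRCh37, a stretch of 16.6 Mb, and whose reads over the pair of libraries summed to 50 or more. The table held 72 protein-coding genes of this stretch, of which 5 were not analysed here and 21 had fewer than 50 reads. The remaining 46 genes are the members, out of 12518 protein-coding genes that reached the same minimum. The stretch was chosen by the fold changes of its genes in this same pair of libraries, which had been seen to be mostly lower in CARM1 KO cells, and the minimum by their reads. The direction and size of the shift are therefore given as a description and were not tested. The stretch begins at EPG5 and ends at RELCH, and the members have unrelated jobs, among them protein synthesis, mitochondrial metabolism, the secretory pathway, DNA methylation reading and cell division. As background, 18q21 is known in carcinomas as a region where tumour cells often carry losses. The libraries hold RNA, and the number of DNA copies was not measured in the data used here.

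The parental library had 30741953 reads and the CARM1 KO library 32300391. In that order CARM1, the targeted gene, had 975 and 380 reads, a level 2.63-fold lower in CARM1 KO cells (95% binomial interval 2.33 to 2.97). All 6 epithelial markers looked at had reads, but WT1 (8 and 1 reads) and MUC16 (0 and 1 reads) were close to absent, and the list summed to 1263 RPM (reads per 1000000 after scaling) in the parental library and 3876 RPM in the other. The 4 fibroblast markers summed to 11.2 and 21.3 RPM but went different ways. COL1A1 had 131 and 537 reads, PDGFRB 132 and 142, LUM 61 and 1, and DCN 24 and 0. The 3 blood markers summed to 13.0 and 51.6 RPM, nearly all of it CD68, with CD3E at 0 in both and PTPRC at 6 and 0 reads. Of the 2 endothelial markers with a value, CDH5 was at 0 in both and VWF had 1 and 2 reads. PECAM1 was also planned as an endothelial marker and has no value here. The part of these differences in the results on 18q21 was not tested. In bulk RNA, fewer cells of a kind and less RNA per cell cannot be told apart.

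RNA from most of the segment was less abundant in CARM1 KO cells. Together the 46 members held 96795 parental reads against 45327 in the CARM1 KO library, or 3108 and 1422 RPM, a sum 2.19-fold lower. LIPG alone held 9.89% of the parental reads, and without it the sum was 1.97-fold lower. The median log2 fold change of the members, CARM1 KO over parental with a prior count of 2, was -0.93, a level 1.90-fold lower, and the quartiles were -1.30 and 0.04. Over all 12518 protein-coding genes the median was 0.03 with quartiles of -0.54 and 0.66. Lower in CARM1 KO cells were 34 members (73.9%), against 48.6% of all protein-coding genes, and 12 were higher. The exact 95% binomial interval of the fold, which covers counting error only, excluded 1 for 32 of the lower and 11 of the higher members. It included 1 for MBD2, C18orf54 and RNF152. The same share over all protein-coding genes is not given here, so nothing is read from these counts.

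The members differed widely around this median. The fold threshold of the study, 3-fold, was passed by 9 lower members (19.6%), against 7.29% of all protein-coding genes, and by 8 higher members (17.4%), against 10.9%. At 2-fold the counts were 20 lower members (43.5%), against 13.4%, and 8 higher members (17.4%), against 17.6%. Since the stretch was chosen for its lower folds, nothing is read from the excess of lower members. When edgeR's exact test with a preset coefficient of variation of 0.12 and a false discovery rate under 0.05 was required as well, the counts stayed at 9 and 8, against 8.17% and 11.1% of genes of any type, and with a coefficient of 0.4 they were 4 and 4, against 4.39% and 3.06%. Within 1.5-fold of the segment's own median lay 20 members (43.5%). Of all protein-coding genes, 49.2% lie within 1.5-fold of the median of all. Among genes with 1000 or more reads, a minimum chosen after the data were seen, the member quartiles were -1.36 and -0.54. Those of all protein-coding genes at that depth were -0.47 and 0.48. The stretch was chosen by these folds and the comparison changes with depth, so nothing is read on whether members were more alike than genes in general. These 20 members were 1.30- to 2.48-fold lower. The plot of fold changes along the segment shows them near the line of the segment median, with other members far above or far below.

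**Figure D1:**
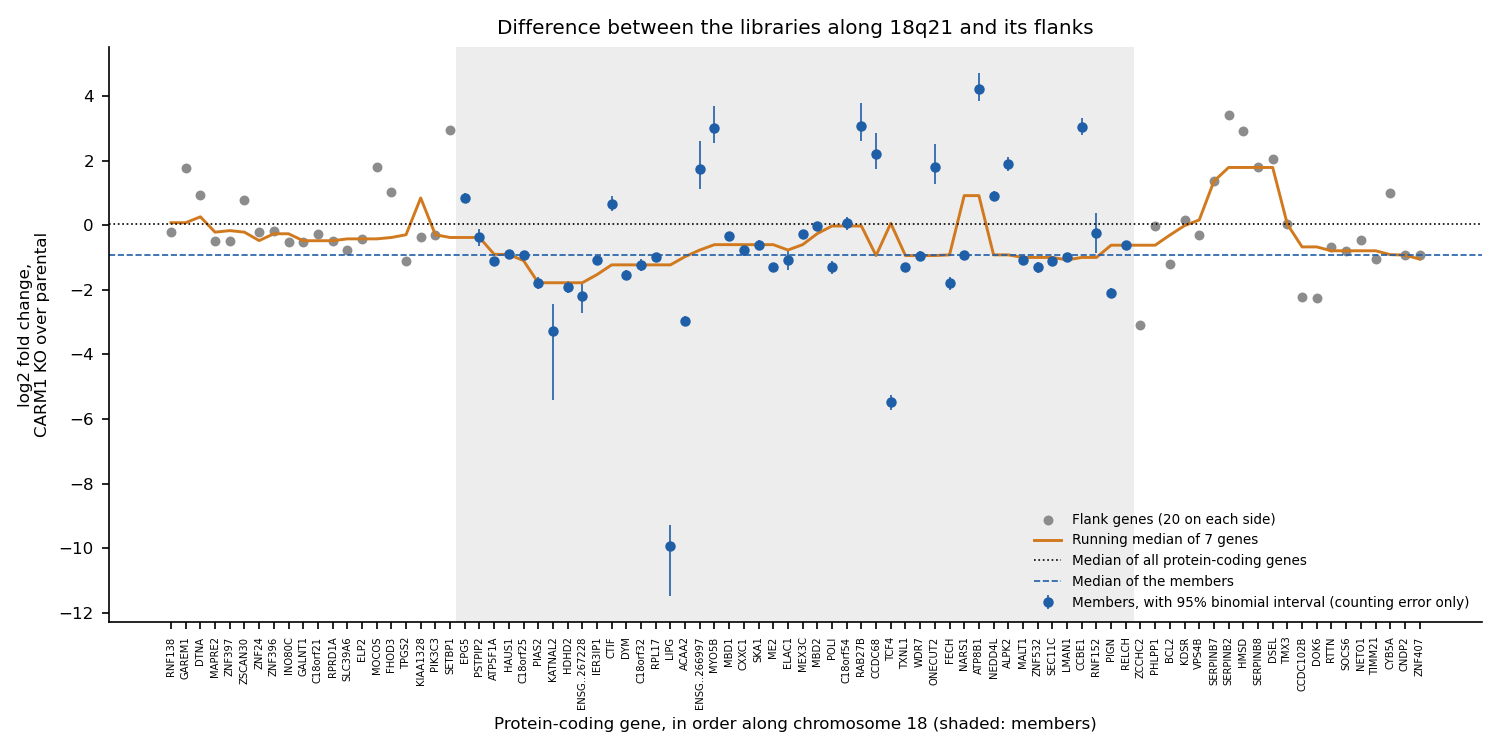
The log2 fold change, CARM1 KO over parental, of the 46 members (blue, with 95% binomial intervals for counting error) and of 20 protein-coding genes on either side (grey), in order along chromosome 18, with the running median of 7 genes in orange. The dashed line is the median of the members at -0.93 and the dotted line that of all protein-coding genes at 0.03. Many members lie near the dashed line, LIPG and TCF4 far below it and ATP8B1 farthest above.

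The most abundant members were among these 20. Levels between genes are compared here as RPKM, the RPM of a gene per kilobase of its merged exons, and reads and levels are given for parental cells first and CARM1 KO cells second. NARS1, the cytosolic asparaginyl-tRNA synthetase, had the highest level of the segment, 71.5 and 37.8 RPKM from 9101 and 4931 reads, 1.89-fold lower (1.83 to 1.96). ATP5F1A, the alpha subunit of the mitochondrial ATP synthase, had 16262 and 7791 reads and levels of 47.9 and 22.4 RPKM, 2.14-fold lower (2.08 to 2.20). LMAN1, the lectin that carries glycoproteins from the endoplasmic reticulum towards the Golgi, had 8376 and 4292 reads and levels of 44.3 and 22.2 RPKM, 1.998-fold lower (1.93 to 2.07). HAUS1, a subunit of the augmin complex of the mitotic spindle, had 1568 and 859 reads and levels of 23.8 and 12.7 RPKM, 1.87-fold lower (1.72 to 2.03). These 4 genes serve different parts of the cell, and their folds fell between 1.87 and 2.14. ATP5F1A and HAUS1 are direct neighbours near the proximal end. The 20 were picked for lying near the segment median, so nothing is read from the narrow range. LIPG, next in parental level at 23.5 RPKM, was 1225-fold lower.

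**Figure D2:**
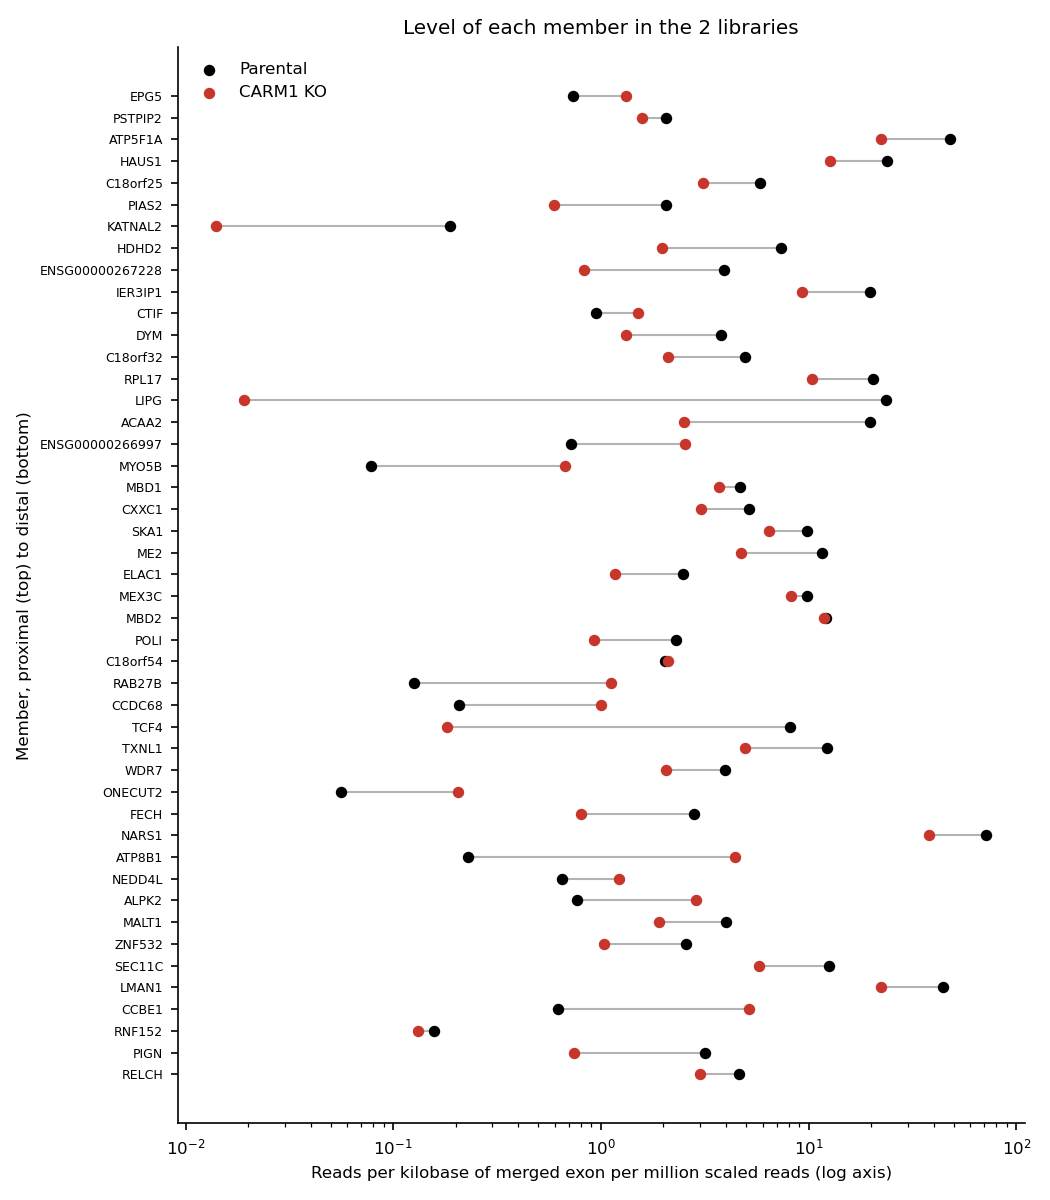
Level of each of the 46 members in parental (black) and CARM1 KO cells (red), as RPKM on a log axis, from the proximal end (top) to the distal end (bottom). For 34 of 46 members the red point lies left of the black one, and LIPG runs from 23.5 to 0.019 and ATP8B1 from 0.228 to 4.40.

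Of the metabolic and mitochondrial list 7 of 7 genes were lower, 5 of them past 3-fold, with a median log2 fold change of -1.90. For this and the lists that follow, 34 of all 46 members were lower, against 48.6% of all protein-coding genes, and 9 were past 3-fold lower, against 7.29%, so a list is read against a stretch that was itself chosen as lower. ME2, the mitochondrial malic enzyme, had 5748 and 2391 reads, 2.46-fold lower (2.35 to 2.58). ACAA2, the thiolase of the last step of mitochondrial fatty acid oxidation, had 3015 and 396 reads, 7.80-fold lower (7.02 to 8.68). FECH, which inserts iron into protoporphyrin to form haem, had 968 and 283 reads, 3.50-fold lower. PIGN, an enzyme of GPI anchor synthesis, had 1870 and 450 reads, 4.25-fold lower. HDHD2, a hydrolase of the haloacid dehalogenase family, had 1072 and 293 reads, 3.75-fold lower. LIPG, the fifth of those past 3-fold, is described with the departures from the segment.

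Members for translation and RNA had, of all role lists, the median closest to that of the segment. Of 6 listed genes 5 were lower and none was past 3-fold, with a median of -0.95 and a range of -1.23 to 0.67. The lowest was C18orf32, which is joined to RPL17 by a readthrough gene. A role of C18orf32 itself in translation or RNA is not shown here, so its place in the list is uncertain. RPL17, a protein of the large ribosomal subunit, had 1558 and 812 reads, 1.96-fold lower (1.80 to 2.14). MEX3C, an RNA-binding ubiquitin ligase, differed little, with 2419 and 2069 reads, 1.197-fold lower (1.13 to 1.27). CTIF, a translation initiation factor that works with the nuclear cap-binding complex, was the exception in direction, with 240 and 392 reads, 1.60-fold higher (1.36 to 1.88).

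Of 12 listed genes for transcription and chromatin, 7 were members, and 6 of these were lower, 2 past 3-fold, with a median of -0.77. MBD2, a methyl-CpG-binding protein, had 2145 and 2159 reads, a scaled level 1.02-fold lower with an interval from 0.958 to 1.08. MBD1, of the same family, had 980 and 793 reads, 1.27-fold lower. CXXC1, which binds unmethylated CpG and is part of the SET1 histone methyltransferase complexes, had 622 and 373 reads, 1.71-fold lower. PIAS2, a SUMO ligase, had 1123 and 333 reads, 3.45-fold lower (3.05 to 3.91), and TCF4 was lowest of the list.

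The secretory pathway, membrane traffic and autophagy list was divided. Of 11 listed genes 10 were members, with 6 lower and none of them past 3-fold, and 4 higher, 3 of them past 3-fold. The lower ones were LMAN1, SEC11C, IER3IP1, DYM, WDR7 and RELCH, with log2 fold changes between -1.53 and -0.62. SEC11C, a catalytic subunit of the signal peptidase, had 1602 and 759 reads, 2.16-fold lower, and IER3IP1, a small protein of the endoplasmic reticulum, had 2599 and 1257 reads, 2.12-fold lower. The higher ones were ATP8B1, RAB27B, MYO5B and EPG5, with log2 fold changes from 0.84 to 4.21. As background, ATP8B1 flips phospholipids at the apical membrane, MYO5B is a motor of apical recycling endosomes, RAB27B a GTPase of regulated secretion, and EPG5 a tether between autophagosomes and lysosomes.

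The smaller lists were as follows. All 4 members for cell division and DNA repair, of 5 listed, were lower, with a median of -1.10. SKA1, of the kinetochore, had 886 and 597 reads, 1.52-fold lower, and POLI, a translesion DNA polymerase, had 668 and 275 reads, 2.49-fold lower. Of 3 members for ubiquitin and redox protein handling, TXNL1, a thioredoxin-like protein, had 4300 and 1782 reads, 2.47-fold lower, NEDD4L, a ubiquitin ligase for membrane proteins, had 689 and 1333 reads, 1.89-fold higher (1.72 to 2.07), and RNF152 had 50 and 43 reads, with an interval from 0.776 to 1.83 for its 1.19-fold lower level. Of 4 members for signalling, of 11 listed, 2 were lower and 2 higher. MALT1, the paracaspase of NF-kappaB signalling, had 2024 and 983 reads, 2.11-fold lower (1.95 to 2.28). Of the 3 members without a common role, C18orf25 had 1744 and 951 reads, 1.88-fold lower, while C18orf54 had 390 and 416 reads, with levels 1.04-fold apart and an interval from 0.905 to 1.199.

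**Figure D3:**
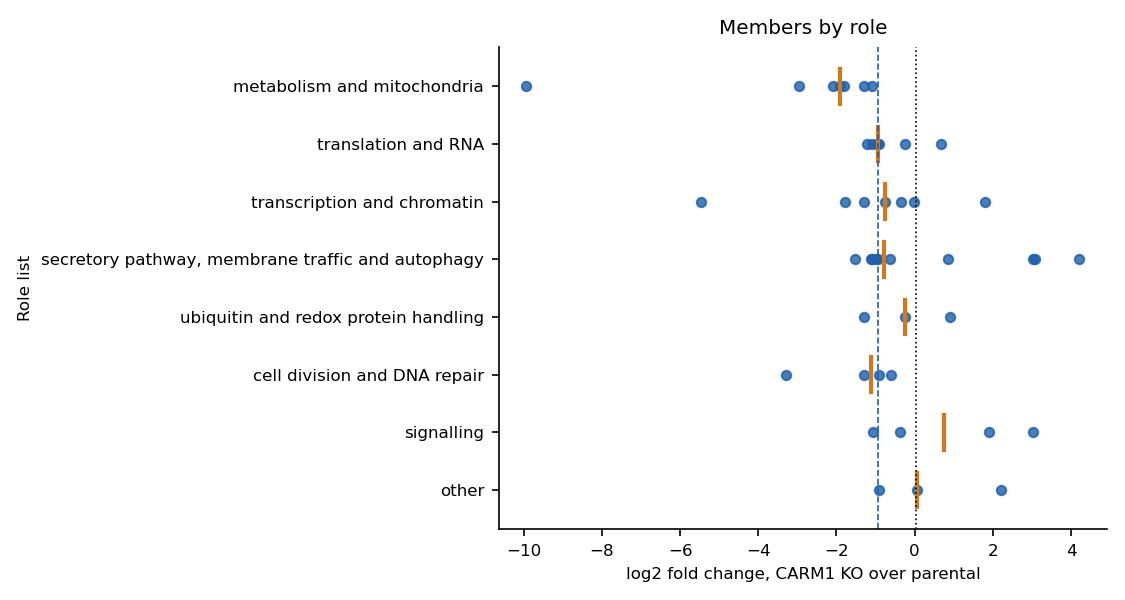
The log2 fold change, CARM1 KO over parental, of each member by role list, with the median of each list as an orange bar, the segment median as a dashed line and the median of all protein-coding genes as a dotted line. The 7 metabolic members all lie below -1, while the secretory and traffic list spreads from -1.53 to 4.21.

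No clean edge marked where the shift began or ended. At each gap between neighbouring genes the median of the next 7 genes was compared with that of the previous 7, over the protein-coding genes that reached the minimum. At the proximal end, between SETBP1 and EPG5, the step was -0.61 on the log2 scale, and at the distal end, between RELCH and ZCCHC2, it was 0.98. The genes at these ends moved in both directions. SETBP1 just outside had 21 and 180 reads, 8.37-fold higher, PIK3C3 beyond it had 1705 and 1422 reads, 1.23-fold lower, EPG5 just inside had 506 and 931 reads, 1.80-fold higher (1.61 to 2.01), and PSTPIP2, the second member, had 265 and 208 reads, 1.30-fold lower. At the distal end PIGN and RELCH were lower, RELCH with 1540 and 1026 reads, 1.54-fold lower. ZCCHC2 just outside had 1062 and 127 reads, 8.56-fold lower, and PHLPP1 beyond it had 278 and 282 reads, 1.01-fold lower.

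With 7 genes on each side the largest steps lay in the distal flank, but with 11 genes on each side both lay inside the segment, 1.44 between ACAA2 and ENSG00000266997 and -1.99 between ALPK2 and MALT1, so the place of the edges depends on this width. With 7 genes the largest upward step, 2.41, was found at 3 adjoining gaps from BCL2 to SERPINB7, past the distal end, where the running median rises over SERPINB7, SERPINB2, HMSD, SERPINB8 and DSEL, all higher in CARM1 KO cells. BCL2 had 530 and 234 reads, 2.32-fold lower, and KDSR 614 and 704 reads, 1.12-fold higher. The largest downward step, -2.58, was found at 4 adjoining gaps from DSEL to RTTN. DSEL had 145 and 625 reads, 4.21-fold higher, TMX3 beyond it 3884 and 4056 reads, 1.02-fold higher, and RTTN 1025 and 658 reads, 1.59-fold lower. Inside the segment, with 7 genes, the largest downward steps were -1.99 between ALPK2 and MALT1 and -1.94 between EPG5 and PSTPIP2, and the largest upward step was 1.86 between WDR7 and ONECUT2. Each of these inner steps adjoins members that were higher in CARM1 KO cells.

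The 20 protein-coding genes on the proximal side had a median of -0.28 with 14 lower, and the 20 on the distal side a median of -0.38 with 12 lower. The sign of the distal median was not stable, with 0.76 for the 10 nearest genes and 0.0076 at a minimum of 10 reads. The other 133 protein-coding genes of chromosome 18 had a median of 0.05. Among genes whose reads summed to 1000 or more, a minimum chosen after the data were seen, 27 of 32 members were lower (84.4%) with a median of -1.04, against 11 of 12 proximal flank genes with a median of -0.40 and 7 of 10 distal flank genes with a median of -0.73. Of all 7493 protein-coding genes at that depth 50.3% were lower and the median was -0.01. Thus the flank genes with many reads were mostly lower as well. The stretch was chosen for its lower folds, so nothing is read from the smaller size of the flank medians.

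Read along the chromosome, the members formed 14 runs of 1 direction, of which 6 held 3 or more lower genes. The longest was PSTPIP2 to IER3IP1, with 9 lower members and a median of -1.10. DYM to ACAA2 held 5 lower members with a median of -1.53, among them LIPG. MBD1 to POLI held 8 with a median of -0.69 and was milder than both, with MEX3C and MBD2 close to no difference. MALT1 to LMAN1 held 4 lower members (MALT1, ZNF532, SEC11C and LMAN1) in a narrow range of -1.30 to -0.998. The runs of higher members were short, of 1 to 3 genes, and CTIF, ONECUT2 and CCBE1 each stood alone between lower neighbours.

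LIPG was the member farthest from the segment. It encodes endothelial lipase, a secreted phospholipase that acts on high-density lipoprotein. The parental library held 9574 LIPG reads and the CARM1 KO library 8, a level 1225-fold lower with an interval from 622 to 2839. Its log2 fold change was -9.93, against a median of -0.87 for the 5 members on either side. It was the 20th largest fall by this measure among the 12518 protein-coding genes. In parental cells it was the fifth most abundant member per length, at 23.5 RPKM, after HAUS1. Its direct neighbours were RPL17 at -0.97 and ACAA2 at -2.96.

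TCF4 came next. It encodes a class I basic helix-loop-helix factor that pairs with tissue-specific partners, and had 7363 and 168 reads, a level 44.9-fold lower (38.5 to 52.6) with a log2 fold change of -5.47. Its neighbours were CCDC68 at 2.21 and TXNL1 at -1.30, and the median of the 10 nearest was -0.47. The non-coding gene LINC01415, which lies at chr18:53443958-53448953 beyond the start of TCF4, was also lower, with 227 and 3 reads, 77.5-fold (26.2 to 378). KATNAL2, a katanin-like gene, had 65 and 5 reads, 13.3-fold lower (5.42 to 42.4), so its fold is poorly fixed by its few reads.

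Relative to the segment median, 4 members were past 3-fold lower, namely LIPG, TCF4, KATNAL2 and ACAA2, where 4.19% of all protein-coding genes lie that low. A further 11 members were past 3-fold higher than the segment median, where 25.1% of all protein-coding genes lie. They were EPG5, CTIF, ENSG00000266997, MYO5B, RAB27B, CCDC68, ONECUT2, ATP8B1, NEDD4L, ALPK2 and CCBE1. The stretch was chosen by these folds, and 5 of the 11 reached the minimum only with the reads of CARM1 KO cells. Nothing is therefore read from these shares.

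ATP8B1 was the member that departed most upward. Its reads numbered 50 and 986, 19.3-fold higher (14.5 to 26.1), the 22nd largest rise by log2 fold change of all protein-coding genes, against a median of -1.01 for its 10 neighbours. RAB27B had 28 and 256 reads, 8.93-fold higher (6.03 to 13.7), and MYO5B had 31 and 272 reads, 8.57-fold higher (5.90 to 12.9). CCBE1, a secreted protein of lymphatic vessel growth that aids VEGFC processing, had 136 and 1158 reads, 8.32-fold higher (6.96 to 10.0). These genes were scarce in parental cells, at 0.078 to 0.618 RPKM, and remained below most lower members in CARM1 KO cells apart from ATP8B1 and CCBE1, at 4.40 and 5.14 RPKM.

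The other members past 3-fold higher had fewer reads or smaller folds. CCDC68, a centriole protein, had 33 and 164 reads, 4.85-fold higher (3.32 to 7.29). ALPK2, an alpha-kinase, had 229 and 878 reads, 3.74-fold higher (3.23 to 4.35), and ONECUT2, a homeobox factor of endoderm, had 29 and 108 reads, 3.64-fold higher (2.40 to 5.69). ENSG00000266997 had 21 and 76 reads, 3.53-fold higher (2.16 to 6.04). Of these 8 members 5 had fewer than 50 reads in parental cells and reached the minimum with the reads of CARM1 KO cells. KATNAL2, LIPG, ENSG00000267228 and RNF152 had fewer than 50 reads in CARM1 KO cells.

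Members of high and of low level are described apart. Scarce genes could reach the minimum of 50 reads through the library in which they were high, as 5 of the higher members did through CARM1 KO cells and KATNAL2 through parental cells, so the minimum itself ties level to fold and nothing is read from the relation. Of the 23 members with a mean level of both libraries above 2.92 RPKM all 23 were lower, with a median of -0.998 and a range of -9.93 to -0.02, and 16 lay within 1.5-fold of the segment median. Of the 23 below it, 11 were lower, with a median of 0.06 and a range of -3.29 to 4.21, and 4 lay within 1.5-fold of the segment median. All protein-coding genes above the same level had a median of -0.01 and those below it 0.12. Over the 46 members Pearson's r between log2 fold change and log2 level was -0.33 and Spearman's rho -0.32, where rho was -0.07 over all protein-coding genes. The points come from the same pair of libraries and both axes use the same counts, so this is a description.

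**Figure D4:**
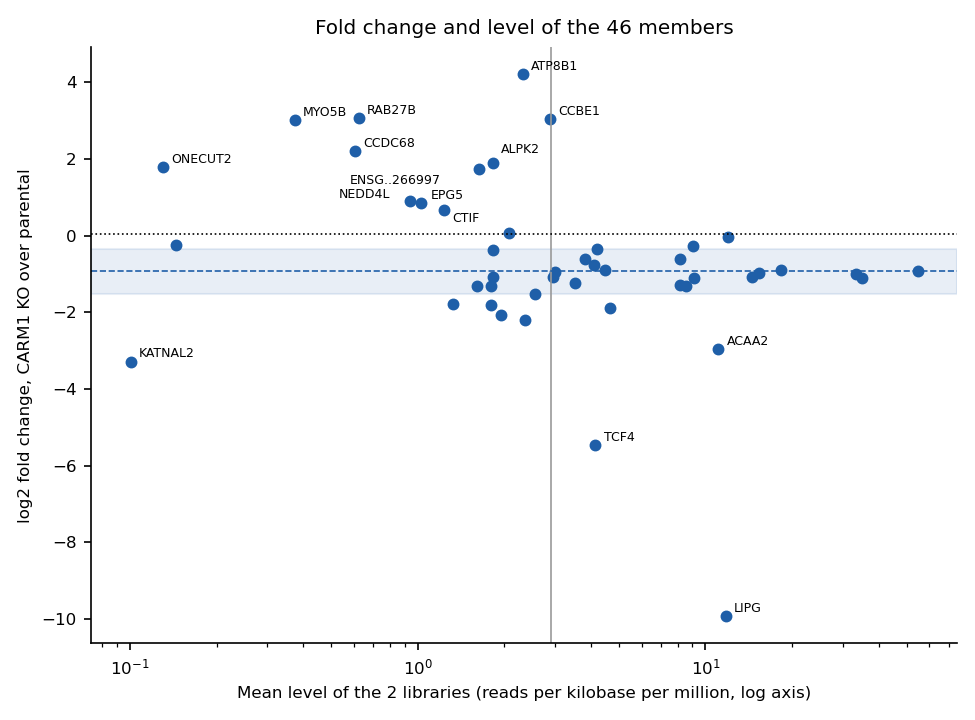
The log2 fold change, CARM1 KO over parental, of the 46 members against their mean level in the libraries, in RPKM on a log axis. The vertical line is the median level of 2.92, the dashed line the segment median with a band of 1.5-fold either way, and the dotted line the median of all protein-coding genes. All points right of the vertical line lie below 0, and the members past 3-fold from the segment median, which carry names, lie mostly left of it.

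Sequence upstream of the start of transcription is shown for the member that departed most downward and for one that held to the segment median. These are the 150 bases before the canonical start on GRCh37, 5′ to 3′ on the strand of the gene, with each CG dinucleotide in capitals. They are chr18:47088277-47088426 on the plus strand for LIPG and chr18:57026498-57026647 on the minus strand for LMAN1.
LIPG: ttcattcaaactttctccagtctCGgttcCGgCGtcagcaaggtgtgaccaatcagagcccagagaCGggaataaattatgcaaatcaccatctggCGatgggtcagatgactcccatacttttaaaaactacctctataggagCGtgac
LMAN1: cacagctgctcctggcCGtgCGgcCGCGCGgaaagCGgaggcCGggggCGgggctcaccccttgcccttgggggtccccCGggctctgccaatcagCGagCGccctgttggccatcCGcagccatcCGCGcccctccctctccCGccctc

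The LIPG window held 6 CG dinucleotides and 46.7% G and C, and the LMAN1 window 15 and 76%. Of motifs searched on both strands of such windows, CCAAT was found in LIPG and LMAN1 and GGGCGG, the core of the GC box, in LMAN1. CCAAT was present for 8 of 46 members (17.4%) and for 27.4% of all protein-coding genes, and GGGCGG for 31 members (67.4%) and 65.2%. TATAAA was found for 0 members and 3.29% of all, and TGACTCA, the AP-1 element, for 1 member (2.17%), RAB27B, and 1.45% of all. A match describes the letters and not the binding of a factor.

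Members did not stand out in their promoters as a set. In windows from 250 bases before to 50 after the canonical start they had a median of 26 CG dinucleotides and 65.8% G and C, against 28 and 66.7% for all protein-coding genes. The 11 members that departed upward had a median of 24 CG dinucleotides, the 4 that departed downward 26 and the 20 near the segment median 28. Gene span differed more. The median span was 63.1 kb for the members and 35.7 kb for all protein-coding genes, and within the segment it was 27.8 kb for the 20 near the median, 85.4 kb for the 4 that departed downward and 166.75 kb for the 11 that departed upward.

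Genes that share a start region did not always differ alike. PIAS2 and KATNAL2 start 95 bases apart on opposite strands, and their log2 fold changes were -1.78 and -3.29. PIGN and RELCH start 199 bases apart on opposite strands, with -2.08 and -0.62. These pairs were taken by canonical start. By the ends of the annotated genes, ATP5F1A and HAUS1 also meet at their 5′ ends, with closer values of -1.10 and -0.90. So do TXNL1 and WDR7, with -1.30 and -0.94. In total 15 members overlap another annotated protein-coding gene. Whether the counts used strand is not given in the sources used here, so reads where genes on opposite strands overlap, such as PIAS2 with KATNAL2 and TXNL1 with WDR7, could not be told apart. Other overlaps are on the same strand, where strand does not separate the reads. ENSG00000267228, with 217 and 47 reads, 4.73-fold lower, overlaps HDHD2 and IER3IP1 in this way, and ENSG00000266997 overlaps ACAA2 (lower) and MYO5B (higher), so their counts are uncertain. RPL17 and C18orf32 share sequence with the readthrough gene RPL17-C18orf32, which RSEM divides reads with.

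Non-coding and scarce genes of the stretch add little. Of 180 non-coding genes with a row, 3 reached 50 reads and all 3 were lower. Besides LINC01415 they were ATP8B1-AS1, which lies antisense to ATP8B1, with 78 and 34 reads, 2.35-fold lower (1.55 to 3.62), and the pseudogene SINHCAFP2 with 49 and 23 reads, 2.18-fold lower (1.30 to 3.75). ATP8B1-AS1 and ATP8B1 thus differed in opposite directions, with the limit on strand given above. Of the 21 protein-coding genes under the minimum, 12 had 0 reads in both libraries, 5 had 1 to 9 and 4 had 10 to 49. The closest below the minimum were RPL17-C18orf32 with 31 and 7 reads and CFAP53 with 15 and 11 reads, and the closest above it were KATNAL2, RNF152 and ENSG00000266997.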

How the data were processed

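RNA of 1 parental and 1 CARM1 KO A1847 culture was made into libraries with the ScriptSeq Complete Gold kit and sequenced as 75 bp paired ends. The authors aligned reads to hg19 with bowtie2, estimated reads per Ensembl gene with RSEM and deposited raw whole-number counts for 57736 genes, not normalized. Where genes share sequence, RSEM assigns reads to them in proportion. GENCODE release 44 lifted to GRCh37 named 55501 identifiers and 2235 stayed unnamed. Counts were scaled by TMM over the whole table (edgeR 4.0.16, R 4.3.3), and log2 fold changes used a prior count of 2. Folds and their exact 95% binomial (Clopper-Pearson) intervals (scipy 1.17.1) used scaled counts without a prior. Called means past 3-fold, since a quasi-likelihood fit in edgeR needs replicates. No p-value is given.

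The members, the role lists and the alternatives were chosen with earlier results of these data known. Named were LIPG, the 6 members farthest above and below the segment median, the 4 most abundant per length, genes beside each end and edge and nearest the minimum, and up to 3 per role list; others were named after their values were seen. The calculations were checked on simulated counts, which says nothing of whether the shift or its edges could arise without a difference. Alternatives were other scalings, minimums, priors, thresholds, flanks and step widths, an exact test with preset spread, and leaving out overlapping genes or LIPG. The sequence of 1 promoter is not reported here.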

Additional observations from a re-analysis of the deposited data

How the results depend on the processing

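No paired analysis was possible because there was 1 library per group. Under all alternatives run the median of the members stayed between -1.04 and -0.77, the lowest size without overlapping genes and the largest at 1000 reads, and LIPG between -10.24 and -9.90. The counts past 3-fold moved more. With a threshold of 2-fold 20 members were past it lower and 8 higher, against 13.4% and 17.6% of all protein-coding genes. With edgeR's exact test at a preset coefficient of variation of 0.4, 4 members were called lower and 4 higher, and at 0.12 the counts stayed at 9 and 8. At a minimum of 200 reads 8 of 41 members were past 3-fold lower and 5 higher. At 1000 reads, a minimum chosen after seeing the data, 7 of 32 members were past 3-fold lower and 3 higher. There 5 were past 3-fold higher than the segment median. The higher count thus fell more than the lower count as the minimum rose. The shares over all protein-coding genes at these minimums are not given here, so nothing is read from the counts. The distal flank had no stable sign. Its median was 0.0076 at a minimum of 10 reads, 0.76 with 10 genes in the flank and -0.63 at 200 reads. The edges moved too. The upward step was 2.59 (KDSR to VPS4B) at 10 reads, 2.36 (PHLPP1 to BCL2) at 200 reads, 1.44 (ACAA2 to ENSG00000266997) with 11 genes on each side, 2.39 (SS18 to TAF4B) at 1000 reads and 2.68 there with 5 genes on each side. The downward step was -2.41 (SOCS6 to TIMM21) at 200 reads, -1.99 (ALPK2 to MALT1) with 11 genes, -2.51 (RNF138 to MAPRE2) at 1000 reads and -2.30 (DSG2 to B4GALT6) there with 5 genes. The gaps found at 1000 reads lie proximal to the segment and are not edges of it. With 7 genes at that minimum, the largest steps inside the segment were 0.93 (LIPG to ACAA2) and -0.80 (ATP5F1A to HAUS1). The cause was not tested.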
